A study of Homo sapiens with 3 samples.

Results

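The genes described here are 9 proneural factors and early lineage markers: NEUROG1, NEUROG2, NEUROD1, NEUROD2, EOMES, TBR1, DCX, TUBB3 and OLIG2. They were listed by name among 20033 protein-coding genes, and all 9 were found in the annotation. For each gene, every CHD8 and TRRAP peak was collected from 5 kb upstream of the gene to its end, a stretch called the gene window below. The windows held 6 of the 23393 CHD8 peaks and 3 of the 14735 TRRAP peaks.

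The data are chromatin immunoprecipitation sequencing (ChIP-seq) peak lists from wild-type human neural stem cells made from H9, an embryonic stem cell line in wide use. Cells were grown with the mitogens EGF and FGF and crosslinked with disuccinimidyl glutarate and formaldehyde. One list came from an antibody against CHD8, a chromatin remodeler, and the other from an antibody against TRRAP, a scaffold of histone acetyltransferase complexes, with 1 library per antibody. The series also has a control IgG library, which was not analysed here. With 1 library per antibody of 1 cell line there is no replicate error, so no test was made, and the read depth behind the lists is unknown.

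Proneural factors are basic helix-loop-helix (bHLH) proteins that pair with E proteins, bind E-box words in DNA and start neuronal differentiation. In the developing cortex the neurogenins act early, in progenitors. EOMES marks intermediate progenitors, and the NEUROD factors, TBR1 and the microtubule proteins DCX and TUBB3 follow in the neuronal lineage. ID and HES proteins hold this programme back in stem cells, and OLIG2 is a bHLH factor of progenitors that leads towards motor neurons and oligodendrocytes. The lists hold peaks and no RNA, so the expression of these genes in the cells was not measured. As a check of the cell label, a promoter peak (a peak touching the 1 kb on either side of the canonical start site) was present for CHD8 at 7 of 7 neural stem cell genes (SOX2, NES, PAX6, VIM, MSI1, FABP7 and NOTCH1). TRRAP promoter peaks were present at 5 of these 7. Over all genes the shares were 55.9% for CHD8 and 34.9% for TRRAP. Of 5 genes of pluripotent cells, 4 (POU5F1, NANOG, L1TD1 and TDGF1) had neither and DPPA4 had both. A promoter peak is not expression, so these counts bear on the label only in part. The CpG ratio (observed over expected CpG within 500 bp of the start) also differed, with medians of 0.739 for the neural stem cell genes and 0.476 for the pluripotent ones. POU5F1 and TDGF1 were in CpG decile 3, where 19.4% of all genes had a CHD8 promoter peak. NANOG was in decile 2 (5.89%) and L1TD1 in decile 4 (57.0%). The part of CpG content in this contrast was not tested.

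Most of the 9 genes had no peak. TUBB3 had both proteins at its promoter, NEUROD1 had CHD8 at its promoter, and TBR1 had a CHD8 peak upstream of its promoter. The other 6, NEUROG1, NEUROG2, NEUROD2, EOMES, DCX and OLIG2, had 0 peaks of either list in their windows.

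Sequences from 4 peak sites are shown first. The NEUROD1 promoter peak is not among them. The stretches printed overlap 0 annotated exons of coding or noncoding genes, though the NEUROD1 ones lie within a noncoding gene. All are from GRCh38, on the strand of the gene, with each CpG dinucleotide in capitals. The first spans 60 bp to either side of the neighbouring CHD8 and TRRAP summits at the TUBB3 promoter (chr16:89922983-89923178, plus strand). The others span 60 bp to either side of 1 summit: CHD8 upstream of TBR1 (chr2:161414383-161414503, plus strand), CHD8 upstream of NEUROD1 (chr2:181683888-181684008, minus strand) and TRRAP upstream of NEUROD1 (chr2:181683609-181683729, minus strand).
TUBB3 CHD8 and TRRAP: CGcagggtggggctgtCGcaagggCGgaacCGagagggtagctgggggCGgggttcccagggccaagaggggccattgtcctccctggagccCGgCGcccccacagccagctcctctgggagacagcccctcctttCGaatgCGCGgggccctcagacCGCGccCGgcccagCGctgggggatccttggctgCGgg
TBR1 CHD8: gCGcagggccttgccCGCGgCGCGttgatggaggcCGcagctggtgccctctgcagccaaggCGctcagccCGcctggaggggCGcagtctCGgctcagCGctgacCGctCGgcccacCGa
NEUROD1 CHD8: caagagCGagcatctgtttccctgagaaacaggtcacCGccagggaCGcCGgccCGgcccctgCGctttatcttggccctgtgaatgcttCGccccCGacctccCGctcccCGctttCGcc
NEUROD1 TRRAP: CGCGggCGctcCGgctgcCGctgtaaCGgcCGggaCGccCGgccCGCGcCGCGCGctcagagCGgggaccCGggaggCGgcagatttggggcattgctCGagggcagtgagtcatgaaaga
The stretches held 15, 14, 11 and 18 CpG dinucleotides in the same order. The first is 196 bases long and the others 121 bases, and the NEUROD1 TRRAP stretch had the most CpGs.

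For comparison, the 150 bases before the RefSeq start sites of the neurogenins (GRCh38.p14) are shown in the same way, because these promoters held no peak of either list. NEUROG1 is at chr5:135535965-135536114 and NEUROG2 at chr4:112516181-112516330, both on the minus strand. The RefSeq table matched 8 of the 9 genes, all except OLIG2.
NEUROG1: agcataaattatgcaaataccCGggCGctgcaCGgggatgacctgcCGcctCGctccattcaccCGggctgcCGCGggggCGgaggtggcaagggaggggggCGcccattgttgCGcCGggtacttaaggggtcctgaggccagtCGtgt
NEUROG2: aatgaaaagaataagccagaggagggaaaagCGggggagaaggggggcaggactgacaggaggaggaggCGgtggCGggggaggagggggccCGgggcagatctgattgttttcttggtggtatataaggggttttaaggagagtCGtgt
The NEUROG1 stretch held 13 CpG dinucleotides and the NEUROG2 stretch 5. Each is 150 bases long, unlike the peak stretches above, so the raw counts are not ranked against those.

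**Figure D1:**
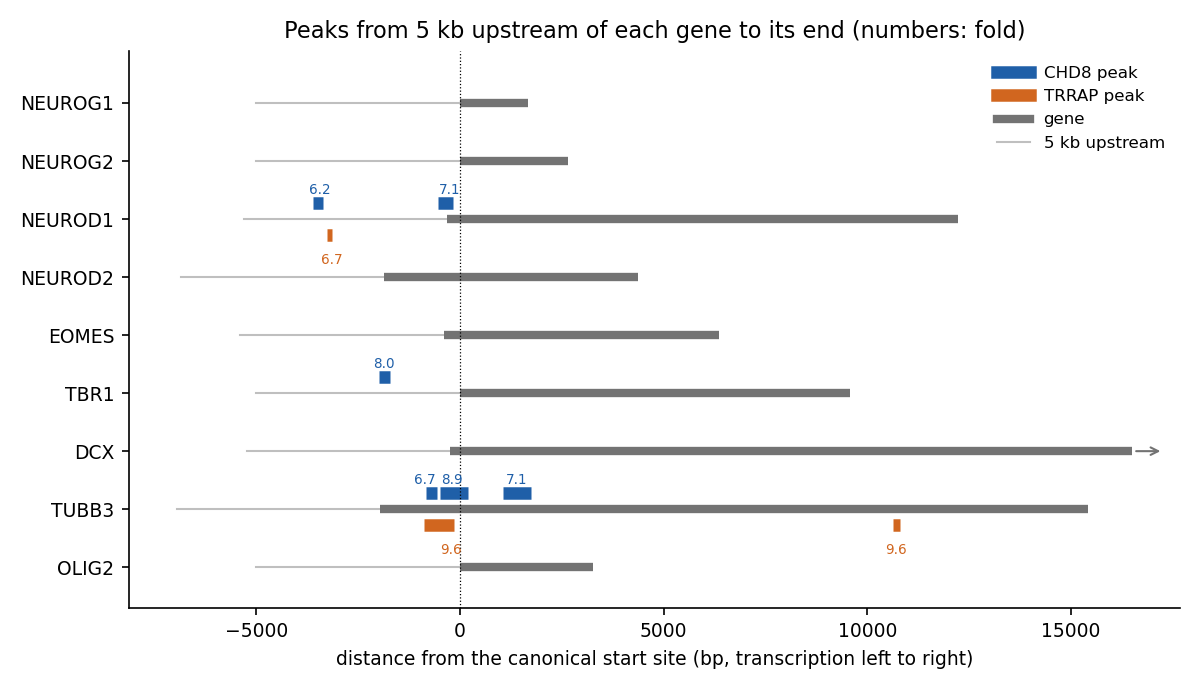
Peaks of CHD8 (blue, above each gene) and TRRAP (orange, below) along the 9 genes, by distance in bp from the canonical start site, with the authors' fold beside each peak. Thick grey lines are genes (DCX runs past the axis), thin lines the 5 kb upstream. TUBB3 holds 5 of the 9 peaks, NEUROD1 3 and TBR1 1, and the other 6 genes have none.

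A CHD8 promoter peak was present at 2 of the 9 genes, TUBB3 and NEUROD1, beside 55.9% of all 20033 protein-coding genes. A TRRAP promoter peak was present at 1 of 9, TUBB3, beside 34.9% of all genes. TUBB3 was therefore also the 1 gene with both promoter peaks, a state that 34.0% of all genes had. In the whole gene window, 3 of 9 genes had a CHD8 peak, beside 64.1% of all genes, and 2 of 9 had a TRRAP peak, beside 43.3%. Windows with 0 peaks of either list made up 6 of 9 here and 34.8% (6969 genes) of all genes. The median gene length over all genes was 27471 bp. All of the 9 except DCX (118651 bp) were shorter than that, so their windows left less room for a peak. The part of length in the window shares was not tested. Each share with a peak was lower among the 9 genes than among all genes, and no test was made on 9 genes. A gene without a peak is one where no signal passed the authors' threshold, and signal under that threshold was not measured.

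NEUROG1 and NEUROG2 are the neurogenins, which commit progenitors to a neuronal fate. NEUROG1 (ENSG00000181965.6, chr5:135534282-135535964) and NEUROG2 (ENSG00000178403.4, chr4:112513516-112516180) are short genes of 1683 and 2665 bp. Each had 0 CHD8 and 0 TRRAP peaks in its window, and 0 of either within 100 kb of the start site. The nearest peaks belonged to other genes' promoters. For NEUROG1 they were the CHD8 peak (fold 12.4) and the TRRAP peak (fold 12.5) at MACROH2A1, 136696 and 136691 bp away. For NEUROG2 they were a CHD8 peak near LARP7 (fold 18.1), 121212 bp away, and a TRRAP peak near ZGRF1 (fold 5.78), 120789 bp away. The antisense noncoding gene NEUROG2-AS1, whose canonical start lies 749 bp inside NEUROG2, had no peak at its start either.

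NEUROD1 and NEUROD2 are bHLH factors that act after the neurogenins in neuronal differentiation. At NEUROD1 (ENSG00000162992.5, chr2:181668295-181680827) the CHD8 promoter peak at chr2:181680682-181681046 was 365 bp wide with a fold of 7.10 and a −log10 q of 9.04. Fold is the authors' linear enrichment of a peak over the background that the peak caller estimated. Its summit lay 257 bp upstream of the canonical start and 53 bp from the start of a longer NEUROD1 transcript, in an exon of that transcript. The start of that longer transcript was inside the peak. A start of CERKL, a gene read from the same strand, lay 17 bp outside the peak and 109 bp from its summit. With both starts this close, the peak cannot be given to NEUROD1 rather than to this CERKL start. CERKL's canonical start is elsewhere, beyond the window of NEUROD1.

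The other NEUROD1 peaks formed a pair more than 3 kb upstream. The CHD8 peak at chr2:181683864-181684112 had a fold of 6.22, a −log10 q of 6.97 and a summit 3431 bp upstream. The TRRAP peak at chr2:181683643-181683768 had a fold of 6.73, a −log10 q of 6.39 and a summit 3152 bp upstream. The peaks did not overlap: 96 bp apart at their edges, they had summits 279 bp from each other. Both lay inside the noncoding gene ENSG00000234595, which is read away from NEUROD1, with summits 835 bp (CHD8) and 556 bp (TRRAP) beyond its start. That start itself was 530 bp from the closest peak.

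NEUROD2 (ENSG00000171532.5, chr17:39603536-39609777) had 0 peaks in its window although its surroundings were crowded. Within 100 kb of its start site lay 10 CHD8 and 2 TRRAP peaks, beside medians of 3 and 2 over all genes, and 9.90% of all genes had 10 or more CHD8 peaks that close. The nearest CHD8 peak (fold 19.9) was at the STARD3 promoter, 29359 bp upstream, and the nearest TRRAP peak (fold 9.60) lay 45140 bp upstream, away from coding promoters. NEUROD2 was the 1 gene without a window peak that had any CHD8 peak within 100 kb.

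EOMES and TBR1 are T-box factors, EOMES of intermediate progenitors and TBR1 of early-born deep-layer neurons. EOMES (ENSG00000163508.13, chr3:27715949-27722711) had 0 peaks in its window and 0 within 100 kb. Its nearest peaks, CHD8 with a fold of 14.2 and TRRAP with a fold of 11.04, were at the SLC4A7 promoter, 237966 and 238051 bp away. TBR1 (ENSG00000136535.15, chr2:161416297-161425870) had 1 CHD8 peak at chr2:161414323-161414586, 264 bp wide, with a fold of 7.98 and a −log10 q of 10.1. Its summit lay 1854 bp before the TBR1 start, and the closest start of any other gene was 4889 bp from that summit. No TRRAP peak accompanied it: the nearest TRRAP peak to the TBR1 start (fold 6.26) was 133844 bp away. A CHD8 peak in the window but not at the promoter, as at TBR1, was the state of 8.16% of all genes (1635).

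DCX and TUBB3 encode proteins of the neuronal microtubule skeleton, doublecortin and class III beta-tubulin. DCX (ENSG00000077279.21, chrX:111293779-111412429) is the longest of the 9 genes at 118651 bp and had 0 peaks in its window. Its nearest CHD8 peak (fold 8.43), at ALG13, was 269442 bp away and its nearest TRRAP peak (fold 7.21) 744304 bp away. All 13 annotated DCX transcripts start inside this window, so no alternative start carried a peak.

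TUBB3 (ENSG00000258947.8, chr16:89921392-89938761) was the most occupied gene, with 3 CHD8 and 2 TRRAP peaks. The strongest CHD8 peak, chr16:89922864-89923531, was 668 bp wide with a fold of 8.87, a −log10 q of 12.4 and a summit 299 bp upstream of the canonical start, and 11 of the 16 annotated TUBB3 transcripts start inside it. A weaker CHD8 peak at chr16:89922508-89922790 had a fold of 6.66 and a summit 704 bp upstream. It covered the start of the antisense noncoding gene ENSG00000259006, 24 bp from its summit. A single TRRAP peak, chr16:89922454-89923210, was 757 bp wide with a fold of 9.60 and a −log10 q of 13.5. It shared 347 bp with the stronger CHD8 peak and all 283 bp of the weaker one. It held the start of the same antisense gene, 456 bp from its summit, and 0 TUBB3 starts, the nearest being 220 bp from the summit, so it cannot be given to TUBB3 rather than to the antisense gene. The TRRAP summit was 224 bp upstream of the start, 75 bp from the stronger CHD8 summit. This was the closest pair of CHD8 and TRRAP summits among the 9 genes, and the upstream pair at NEUROD1 was the next. The start of MC1R, at an offset of -4480 bp from that of TUBB3 and inside its window, was 3592 bp from the closest peak. A readthrough gene (ENSG00000198211), which starts at an offset of -4177 bp, spans all 5 TUBB3 peaks.

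The other peaks at TUBB3 were in its body. CHD8 had a peak in intron 1, chr16:89924401-89925084, 684 bp wide, with a fold of 7.10 and a summit 1396 bp downstream of the start. TRRAP had a peak in intron 3 of the canonical transcript, chr16:89933975-89934157, 183 bp wide, with a fold of 9.60, 10698 bp downstream. Its summit lay in an exon of 2 other TUBB3 transcripts. The nearest CHD8 peak was 8891 bp away. This TRRAP peak lay wholly inside a tandem repeat at chr16:89933899-89934296, 398 bp long with a period of 41 bp. Within 100 bp of its summit, 98.8% of bases equalled the base 1 period on. At the other 8 peaks the highest such share over periods of 10 to 60 bp was between 31.3% and 39.9%. The 32-base words around its summit occurred a median of 2 times and up to 7 times in the genome, beside 1 for each of the other 8 peaks. Summits on such repeats (at least 85% equal) were 2.01% (37 of 1838) of the TRRAP peaks on the main chromosomes that overlapped no CHD8 peak and 0.609% (76 of 12471) of those that did. Whether reads from the repeat made this peak was not tested.

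OLIG2 (ENSG00000205927.5, chr21:33025935-33029196), a bHLH factor of the oligodendrocyte and motor neuron lineages, had 0 peaks in its window. The nearest CHD8 peak (fold 7.10), at the IFNAR2 promoter, was 203967 bp away. A TRRAP peak with a fold of 10.1 lay 75565 bp downstream, past the neighbouring gene OLIG1, whose start was 31359 bp from the summit.

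**Figure D2:**
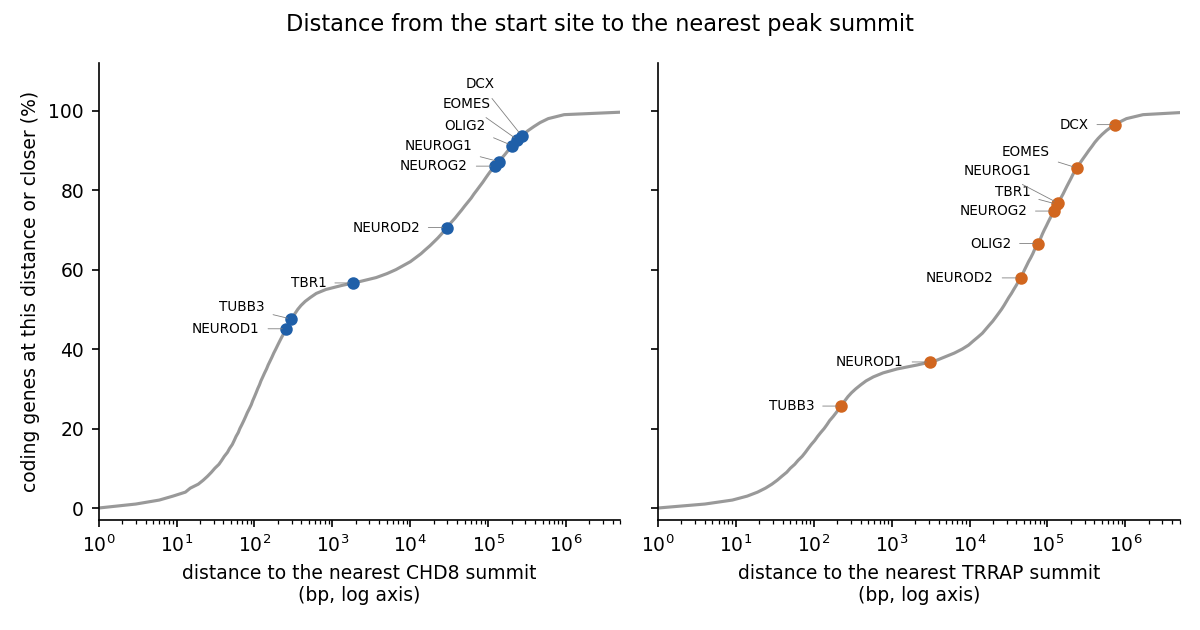
Distance in bp (log axis) from the canonical start site to the nearest CHD8 (left) and TRRAP (right) summit for the 9 genes (points) on the cumulative curve of all 20033 protein-coding genes (grey). NEUROG1, NEUROG2, EOMES, DCX and OLIG2 lie more than 100000 bp from a CHD8 summit.

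The distances place most of these genes in stretches with few peaks. Of the 9 start sites, 5 had 0 CHD8 peaks within 100 kb (NEUROG1, NEUROG2, EOMES, DCX and OLIG2), as had 16.02% of all genes. For TRRAP the count was also 5 (NEUROG1, NEUROG2, EOMES, TBR1 and DCX), beside 28.3% of all genes. Of all genes, 6.29% lay farther from a CHD8 summit than DCX, 7.32% farther than EOMES, 8.79% farther than OLIG2, 12.8% farther than NEUROG1 and 14.0% farther than NEUROG2. The median distance over genes without a CHD8 promoter peak (8825 genes) was 60461 bp. NEUROD2, at 29359 bp, and TBR1, at 1854 bp, were nearer than that.

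**Figure D3:**
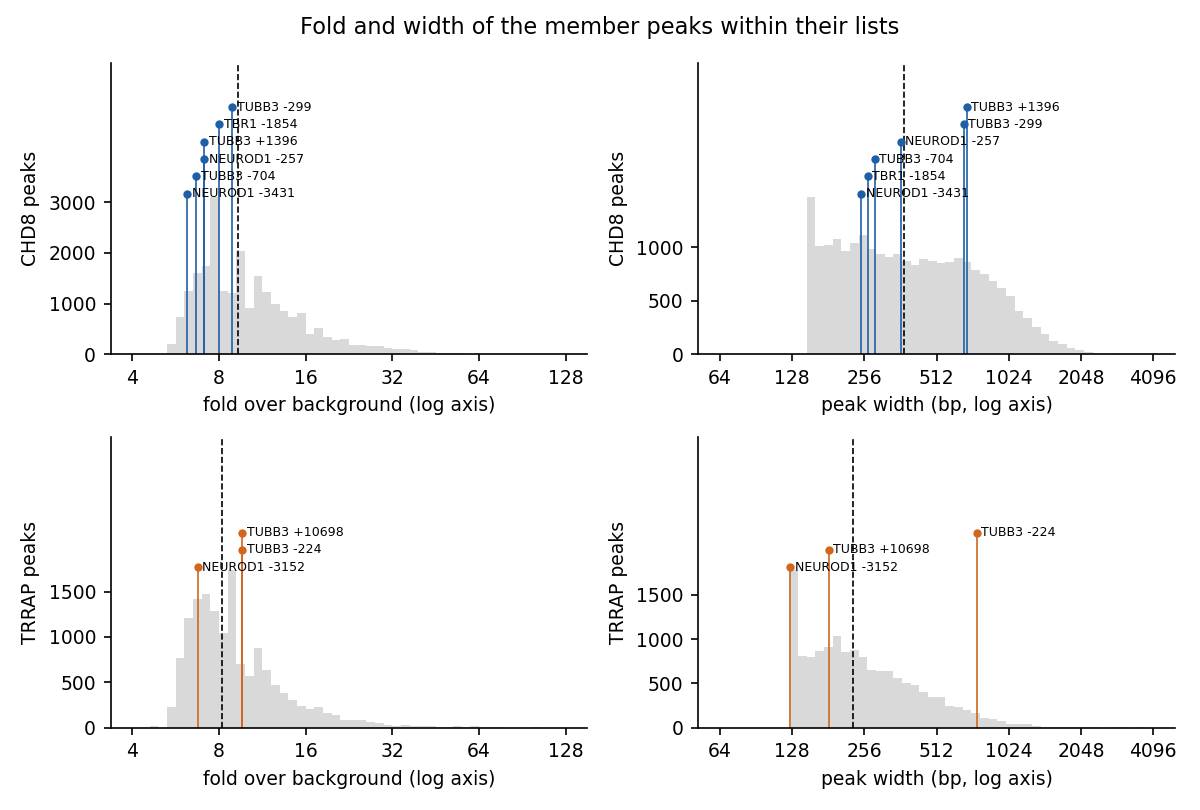
Fold (left, log axis) and width in bp (right, log axis) of the member peaks, each named with its gene and summit offset in bp, over the histogram of all CHD8 peaks (top) and all TRRAP peaks (bottom). The dashed line is the list's median, and the 6 CHD8 member peaks all lie left of it in fold.

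The CHD8 peaks at these genes were weak within their list. All 6 had a fold under the list's median of 9.31 and a −log10 q under its median of 13.6. Their folds ran from 6.22 (NEUROD1, upstream) to 8.87 (TUBB3, promoter), with a median of 7.10, and the lowest fold in the list was 4.89. Among the 12578 CHD8 peaks at promoters of coding genes, whose median fold was 10.6, 32.6% had a lower fold than the strongest TUBB3 peak and 12.5% a lower fold than the NEUROD1 promoter peak. The list held 161 distinct folds, and the fold of 7.10 at NEUROD1 and in the TUBB3 intron was shared by 1737 peaks, so equal folds are steps of the scale. By width the picture was mixed: 4 of the 6 CHD8 peaks were narrower than the list's median of 376 bp, whereas the TUBB3 peaks of 668 and 684 bp were wider than 75.5% and 76.6% of the list.

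The TRRAP peaks showed a different order. Both TUBB3 peaks had a fold of 9.60, above the list's median of 8.17 and above 62.3% of TRRAP peaks, and the NEUROD1 peak, with a fold of 6.73, exceeded 15.1%. The TUBB3 promoter peak, 757 bp wide, was wider than 95.9% of the TRRAP list, whose median was 229 bp. The NEUROD1 peak, 126 bp wide, was wider than 6.79%. Folds were ranked within each list and not compared between lists. Of the 3 TRRAP peaks in the windows, 1 overlapped a CHD8 peak by at least 1 bp, the TUBB3 promoter peak, beside 86.8% of all TRRAP peaks.

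**Figure D4:**
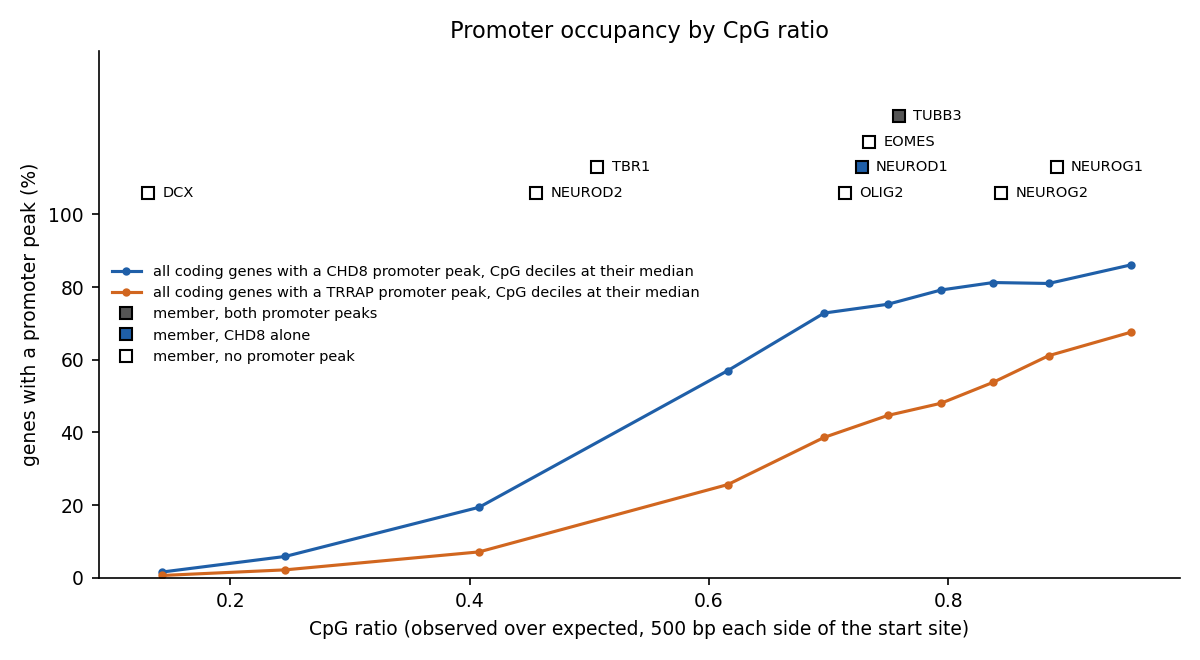
Share of all protein-coding genes with a CHD8 (blue) or TRRAP (orange) promoter peak in each decile of the CpG ratio, plotted at the decile's median ratio. Squares mark the CpG ratio of the 9 genes and have no height of their own. NEUROG1, NEUROG2, EOMES and OLIG2 have no promoter peak at ratios where more than 70% of all genes have CHD8.

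Across all genes, promoter occupancy was low in the CpG-poorest deciles and high in the CpG-richest ones, so CpG content is given for each member. The CpG ratio (observed over expected CpG within 500 bp of the start) was highest at NEUROG1 (0.891) and NEUROG2 (0.844), in deciles 9 and 8, where 81.0% and 81.2% of genes had a CHD8 promoter peak. TUBB3 (0.758), EOMES (0.734) and NEUROD1 (0.728) were all in decile 6, with a CHD8 share of 75.2% and a TRRAP share of 44.7%. In that decile TUBB3 had both proteins, NEUROD1 had CHD8 and EOMES had neither. OLIG2 (0.714) was in decile 5, where 72.8% of genes had CHD8. TBR1 (0.507) and NEUROD2 (0.455) were in decile 3, where 19.4% had CHD8, and DCX (0.131) in decile 1, where 1.60% had it. So 4 of the 7 genes without a CHD8 promoter peak (NEUROG1, NEUROG2, EOMES and OLIG2) were in deciles where most genes had CHD8. The other 3 (NEUROD2, TBR1 and DCX) were in CpG-poor deciles where most did not. Of the 4, EOMES and OLIG2 had ratios near the median of all genes (0.725). The GC content of the same stretches ran from 42.8% (DCX) to 73.3% (TUBB3).

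E-box words were searched because the bHLH proteins among these genes, and MYC in the study's title, bind such words. The letters CACGTG (the MYC and MAX form), CAGATG and CAGCTG (forms read by proneural factors) and the general CANNTG, which includes all of them, were sought as exact matches, on either strand, up to 100 bp from each summit. CACGTG occurred at the NEUROD1 promoter peak and the TUBB3 intron peak of CHD8, 2 of 6 CHD8 member peaks, beside 5.37% of all CHD8 peaks on the main chromosomes. CAGATG occurred at the upstream peaks of NEUROD1 and TBR1, beside 8.33% of the list, and CAGCTG at TBR1 and the TUBB3 intron, beside 15.04%. CANNTG occurred at 5 of the 6 CHD8 peaks, all but the strongest TUBB3 peak, beside 50.4% of the list. The 3 TRRAP peaks held 0 of the 4 words, beside list shares of 7.03% for CACGTG, 7.01% for CAGATG, 13.01% for CAGCTG and 47.5% for CANNTG. The matches are descriptions of 6 peaks and not binding sites. Those of the 3 specific words are shown with 10 bases on each side, on the strand of the gene and with the word in capitals (CATCTG is CAGATG on the other strand).
NEUROD1 promoter, chr2:181680794-181680819: atgggcaggtCACGTGgttccaggct
NEUROD1 upstream, chr2:181683983-181684008: caagagcgagCATCTGtttccctgag
TBR1 upstream, chr2:161414338-161414363: tagtctgggaCATCTGgtcaacaacc
TBR1 upstream, chr2:161414410-161414435: atggaggccgCAGCTGgtgccctctg
TUBB3 intron 1, chr16:89924645-89924670: cagggccagcCACGTGgctgacatgt
TUBB3 intron 1, chr16:89924743-89924768: cccaaggagaCAGCTGtgcctgccaa
Of these 6 matches, the closest to a summit were the CAGCTG of the TUBB3 intron, centred 17 bp away, and that of TBR1, 20 bp away. The CACGTG words were 32 bp (NEUROD1) and 80 bp (TUBB3) from their summits.

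Other genes of the neuronal programme were taken from 7 lists (53 genes, all matched) to place the 9 genes among partners, antagonists and relatives. Over the 53 genes, 28 (52.8%) had a CHD8 promoter peak and 21 (39.6%) a TRRAP promoter peak, and 25 had neither. These were near the shares of all genes, 55.9% and 34.9%, which also stand beside the counts of each list below. TRRAP without CHD8 occurred at 0 of them. The lists differed widely around those totals, but each held only 3 to 12 genes. They were also chosen with earlier results of these data known, so differences between lists are descriptions only.

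Of 8 further proneural bHLH genes, 1 had a CHD8 promoter peak, ATOH7 (fold 7.10), which also had TRRAP (fold 8.65). The genes with neither included NEUROG3, NEUROD4, NEUROD6, ATOH1, NHLH1 and NHLH2, and 3 of the 4 neurogenin and NEUROD genes among the 9 were also without a promoter peak. The E proteins, with which these factors pair, had both peaks at 2 of 3 genes: TCF12 (CHD8 fold 35.4, TRRAP fold 11.04) and TCF3 (27.9 and 11.5), while TCF4 had neither. The antagonists of the proneural factors, 4 ID genes, HES1, HES5, HEY2 and the neuronal gene repressor REST, had CHD8 at 8 of 8 promoters and TRRAP at 7. HES1 (fold 17.3) and ID3 (14.2) had the highest CHD8 folds, ID4 (16.3) the highest TRRAP fold, and ID3 was the 1 antagonist without TRRAP. HES1 and HES5 shared the next TRRAP fold, 11.99.

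Early neuronal factors had CHD8 at 4 of 6 promoters and TRRAP at 3. SOX11, a factor of newborn neurons, had both, with folds of 11.96 for CHD8 and 11.04 for TRRAP. SOX4 had CHD8 alone (fold 10.2), and INSM1, a factor of intermediate progenitors as EOMES is, had both (CHD8 fold 7.98, TRRAP fold 12.5). MYT1 and MYT1L had neither. Cortical neuron factors had CHD8 at 4 of 8 promoters and TRRAP at 2. Both peaks were present at TLE4 (CHD8 fold 14.2, TRRAP fold 6.73) and POU3F2 (12.4 and 8.65), and FEZF2, BCL11B, CUX1 and CUX2 had neither.

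Genes of the neuronal cytoskeleton and RNA-binding proteins had CHD8 at 9 of 12 promoters and TRRAP at 6. NCAM1, a neural adhesion molecule, had the highest CHD8 fold (16.8) and no TRRAP, and STMN1, which binds tubulin, followed in CHD8 (16.4). The highest TRRAP folds were at TUBA1A (34.4), an alpha-tubulin gene, and MAP2 (27.3), a microtubule-associated protein of dendrites. Both peaks, as at the TUBB3 promoter, were present at 6 of these 12 genes, including the beta-tubulin genes TUBB2A and TUBB2B, beside 34.0% of all genes. Neither peak, as at DCX, was present at ELAVL4, RBFOX3 and DCLK1, a relative of DCX. DCX was in CpG decile 1, where 1.60% of all genes had CHD8, and DCLK1 in decile 6, where 75.2% had it. The 8 oligodendrocyte lineage genes, among them OLIG1, OLIG3, SOX10, NKX2-2, PDGFRA, CSPG4 and MBP, had 0 promoter peaks of either list, as had OLIG2.

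**Figure D5:**
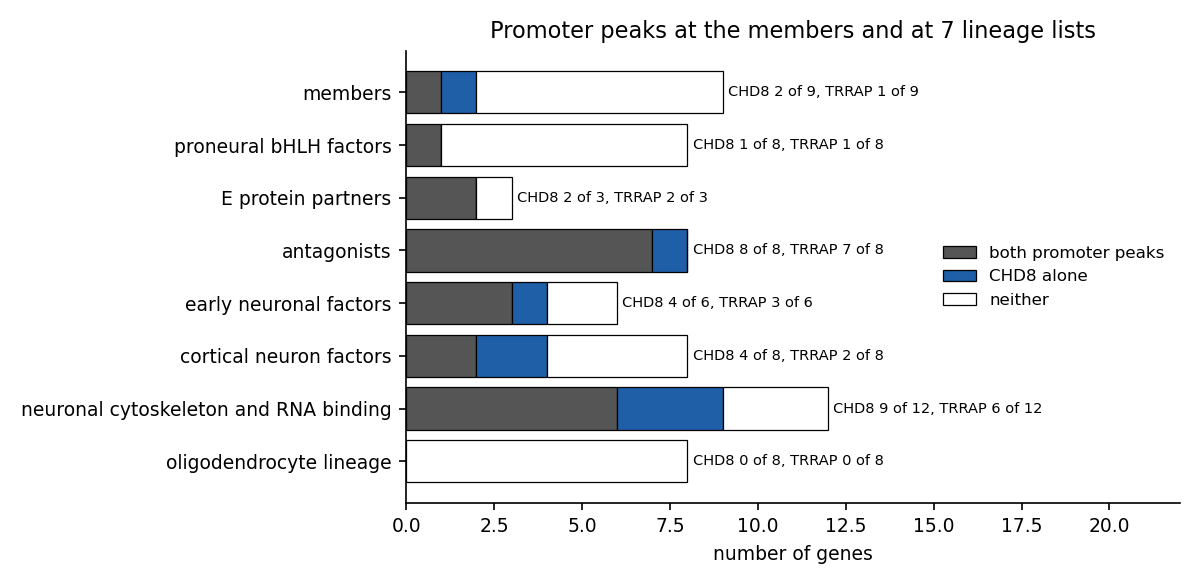
Number of genes with both promoter peaks (dark), CHD8 alone (blue) or neither (white) among the 9 members and in each of the 7 lists. The antagonists have CHD8 at 8 of 8 promoters, and the 8 oligodendrocyte lineage genes have 0 promoter peaks. The lists were chosen with earlier results of these data known.

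The lists also differed in CpG ratio, which is given beside their occupancy. The median ratio was 0.807 for the antagonists, 0.736 for the cytoskeletal list, 0.728 for the 9 members, 0.531 for the oligodendrocyte lineage and 0.519 for the further proneural genes. Its part in the differences between lists was not tested. The median over all genes was 0.725. Among the 9 members the ratio ran from 0.131 (DCX) to 0.891 (NEUROG1), and its part in their occupancy was not tested either.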

How the data were processed

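ChIP-seq peak lists of 1 CHD8 and 1 TRRAP library were used. The IgG library was not analysed here. Per the submitters' processing notes, the build was GRCh38 and the tools included HISAT2 and MACS2 2.1.1.20160309; control and filters are not given in the sources used here. The authors deposited, per peak, a fold (linear ratio over background), −log10 p-values and q-values, and a summit. False discovery rates in the deposited list names were 0.0001 for CHD8 and 0.001 for TRRAP. On the main chromosomes 0 peaks ran past a chromosome end.

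Peaks were intersected with GENCODE 44 by at least 1 bp, with coordinates counted from 1. Ranks used −log10 q, then fold, width and position. Interval counting was checked on simulated peaks. Python 3.11.15, numpy 2.4.6, pandas 2.3.3 and pysam 0.24.0 were used.

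With 1 library per antibody, no test was made. All 9 genes are named. From each of the 7 lists, the 2 highest CHD8 and TRRAP folds are given, and other genes by state; some list genes count in the totals but are not reported here by name. The members and lists were chosen with earlier results of these data known. The tandem repeat was looked for after its peak was seen.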

Additional observations from a re-analysis of the deposited data

How the results depend on the processing

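The counts were recomputed under 11 other settings, 1 of them (without the peak on the tandem repeat) chosen after seeing the data. Of 62 comparisons in all, 55 stayed within 1.5 times the value reported. Some of these could not change, such as CHD8 counts when only TRRAP peaks were filtered (q-value of at most 0.0001) or the repeat peak was left out. The limit of 1.5 also passed a fall from 28 to 19 lineage list genes with a CHD8 promoter peak. The 55 is therefore not a measure of robustness. With peaks above the median rank of their list, 0 of the 9 genes had a CHD8 promoter peak, both promoter peaks or a CHD8 peak in the window, the windows held 0 CHD8 peaks, 1 gene had a TRRAP window peak, and 0 TRRAP window peaks overlapped CHD8. This setting removes every CHD8 member peak because all 6 lie below the median rank, and over all genes it left 42.5% with a CHD8 promoter peak. With windows from 2000 bp upstream, 1 gene had a TRRAP peak, since the NEUROD1 peak lies farther out. With a promoter of 2500 bp on each side, 3 genes had a CHD8 promoter peak, the third being TBR1. Without the peak on the tandem repeat, the windows held 2 TRRAP peaks. No paired analysis was possible because each antibody had 1 library. The read depth is unknown, so a missing peak may be a signal under the threshold.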

Other observations

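DPPA4, the 1 pluripotent-cell gene with promoter peaks, had a CHD8 fold of 20.4 and TRRAP at 8.17. Among the neural stem cell genes, the highest folds were at NOTCH1, a receptor that maintains progenitors (CHD8 fold 23.01, TRRAP fold 23.9). MSI1 and FABP7 had CHD8 alone, with folds of 7.54 and 10.2. These genes were read only as a check of the cell label.

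Among the 1036 genes of the 3 highest CpG deciles without a CHD8 promoter peak, the median distance to the nearest CHD8 summit was 71159 bp. NEUROG1 and NEUROG2 belong to that group, with distances of 136696 and 121212 bp.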
